A study of Mus musculus with 24 samples.

Results

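The amyloid precursor protein gene App, its paralogs Aplp1 and Aplp2, and the genes of the secretases that cut their products were followed in the cerebral cortex of young mice with and without Fmr1. The 9 genes were App, Aplp1, Aplp2, Bace1, Psen2, Psenen, Ncstn, Aph1a and Aph1b, out of 18193 gene symbols on the Affymetrix Mouse 430 2.0 array. Members were the probe sets annotated with 1 of these symbols and no other, which gave 25 of 45037 probe sets. A further probe set annotated to both Aph1b and a related gene was left out, and other subunits of the complex were not analysed here. The mice were males of the FVB background at postnatal day 7, and were either WT or Fmr1 KO, with no other allele or treatment named in the labels. Cortices of 2 mice of 1 genotype were pooled for each sucrose gradient, and each genotype had 6 such lysates, prepared as 6 pairs of littermates. Total RNA came from the 20% of a lysate reserved before the gradient. Polyribosomal RNA came from gradient fractions 10 to 13 of 16, which carry mRNAs with 6 or more ribosomes. The 4 groups, WT and Fmr1 KO total RNA and WT and Fmr1 KO polyribosomal RNA, thus held 6 arrays each.

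App is a membrane protein with a large extracellular part, and neurons make much of it. Cleavage by the beta-secretase Bace1 and then by gamma-secretase releases amyloid-beta, the peptide of the plaques of Alzheimer's disease, whereas cleavage by an alpha-secretase such as Adam10 cuts within the peptide. Gamma-secretase is a membrane complex with a presenilin as its catalytic subunit, and with nicastrin (Ncstn), presenilin enhancer (Psenen) and an Aph1 protein as its other parts. FMRP, the RNA-binding protein encoded by Fmr1 and lost in fragile X syndrome, has been reported to bind App mRNA and to repress its translation. The comparisons therefore asked if these mRNAs differ between genotypes, in level or in their share on polyribosomes.

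Values are log2 expression per probe set. A probe set was tested when it reached a log2 value of 4 in at least 6 of the arrays compared, and a gene was represented by its probe set with the highest mean over the 24 arrays. All 9 genes were tested in each comparison, and 18 to 20 of their 25 probe sets. Fmr1 itself, which checks the labels, had no overlap between genotypes at any of its 3 probe sets, with Fmr1 KO lower in both RNA kinds (two-sided exact permutation p = 0.00216, the smallest possible for 6 against 6). On each array 38.8% to 40.0% of all probe sets were at this limit or above. The polyribosomal arrays of WT replicate 4 and Fmr1 KO replicate 5 lay farthest from their group means, with root mean square residuals of 0.323 and 0.320. The other polyribosomal arrays had 0.177 to 0.266 and the total arrays 0.130 to 0.223. These residuals cover the probe sets that reached 4 in at least 6 of the 24 arrays. The markers of excitatory neurons (9 of 9 on the array), interneurons (8 of 8) and astrocytes (8 of 8) had mean values of at least 4, whereas neither blood marker did. The tissue is bulk cortex, so fewer cells of a type and less RNA per cell cannot be told apart.

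App mRNA stood at nearly the same level in the 4 groups. In WT total RNA its brightest probe set (1427442_a_at) had log2 values of 12.03, 12.13 and 12.19 as lowest, median and highest, and in Fmr1 KO total RNA 12.01, 12.10 and 12.14. In WT polyribosomal RNA these values were 11.84, 12.16 and 12.34, and in Fmr1 KO polyribosomal RNA 11.56, 11.96 and 12.20. The order of the group means was WT polyribosomal and WT total at 12.12 each, Fmr1 KO total at 12.09 and Fmr1 KO polyribosomal at 11.95, and neighbours in this order did not differ beyond their spread. The total arrays lay close together (SD 0.06 in WT and 0.05 in Fmr1 KO, n = 6 each) and the polyribosomal arrays wider apart (SD 0.16 and 0.22, n = 6 each). The 2 lowest of the 24 values were those of Fmr1 KO polyribosomal replicate 5, at 11.56, and WT polyribosomal replicate 4, at 11.84, the arrays that stood apart. The second App probe set (1420621_a_at) ran in parallel, with group means of 11.40 in WT total, 11.39 in Fmr1 KO total, 11.47 in WT polyribosomal and 11.31 in Fmr1 KO polyribosomal RNA. Another 2 App probe sets, with means of 1.14 and 1.13, never reached a log2 value of 4 and were not tested.

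**Figure D1:**
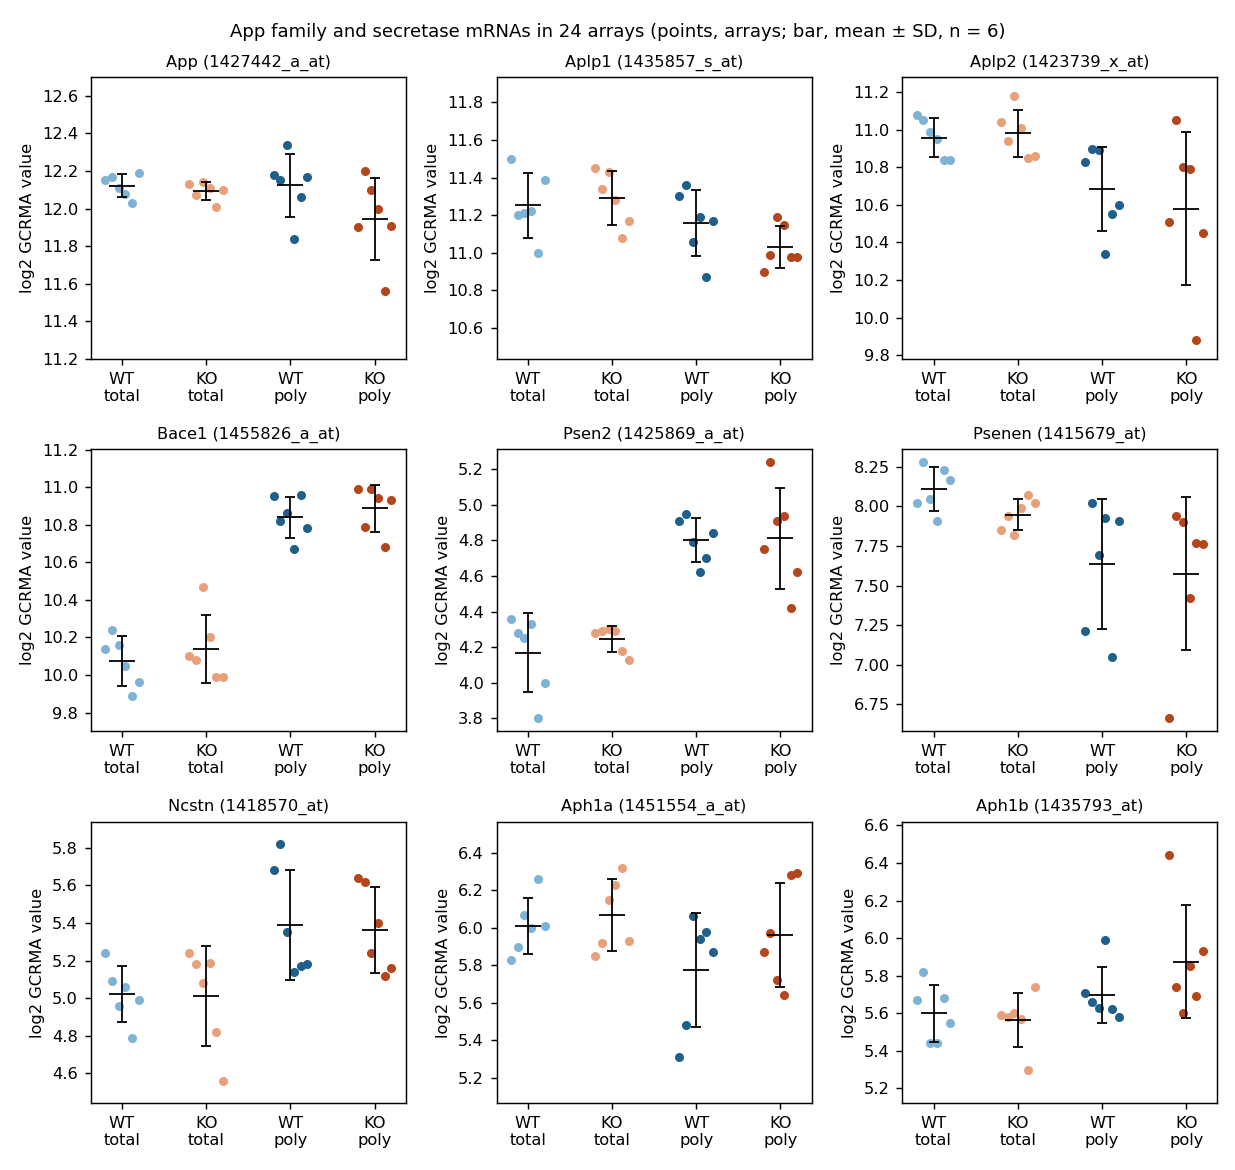
Log2 GCRMA value (vertical axis, a separate range for each panel) of the brightest probe set of each of the 9 genes in WT and Fmr1 KO (KO) total and polyribosomal (poly) RNA. Points are arrays, and bars give the mean and SD of 6 arrays. Bace1 and Psen2 are higher in every polyribosomal array than in every total array of their genotype, while the App groups overlap, with means of 11.95 to 12.12. The share of all genes separated in this way is not given.

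Loss of Fmr1 was not followed by a detected change in any of the 9 mRNAs in polyribosomal RNA. App was 0.18 lower in Fmr1 KO on the log2 scale (SE 0.117, 95% interval -0.43 to 0.07, limma adjusted p = 1). The SD of its arrays was 0.22 in Fmr1 KO and 0.16 in WT. The interval covers a fall of up to 0.43, so a moderate decrease is not excluded. None of 9 genes passed an adjusted p of 0.05 in limma, where 1 of 9664 genes tested did, which is 0.0103%, and none of the 9 had an unadjusted p under 0.05. The ranges of the 2 genotypes overlapped at every probe set tested. Of all genes tested, 6.82% had a lower difference than App, 13.4% than Aplp1 and 17.6% than Aplp2. For the secretase genes this share was 27.9% to 92.9%. Without the 2 lysates whose polyribosomal arrays stood apart, the count of called members was also 0 and App was at -0.16. Without the number 5 lysates of both genotypes App was at -0.11. Over the 14 alternatives its value ran from -0.24 to -0.11, so some were farther below 0 than the main value of -0.18.

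The paralogs had differences of the same small size in polyribosomal RNA. Aplp1, whose product is found mostly in neurons, differed by -0.13 (SE 0.101) at its brightest probe set and by 0.04 (SE 0.137) at the other. Aplp2, which is expressed in many tissues, differed by -0.10 (SE 0.171) at its brightest probe set, with Fmr1 KO values from 9.88 to 11.05 and WT values from 10.34 to 10.90. That value rested on single lysates, at 0.01 without the number 5 lysates and at -0.22 without the number 4 lysates. Its probe set 1432344_a_at differed by -0.41 (SE 0.267, 95% interval -0.98 to 0.15). Across the App family the median difference was -0.13, beside 0.01 over all genes tested.

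The secretase genes stood on either side of 0. Bace1 differed by 0.04 (95% interval -0.15 to 0.24) and Psen2 by 0.01 (-0.26 to 0.28). Psenen differed by -0.06 (-0.53 to 0.41) and Ncstn by -0.03 (-0.33 to 0.28), so the bounds for Psenen were the widest of the 9 genes. Aph1a, one of the alternative Aph1 subunits, differed by 0.19 (-0.14 to 0.51). Aph1b, the other, differed by 0.18 (-0.11 to 0.46) at its brightest probe set and by 0.22 (0.02 to 0.43) at probe set 1456500_at. The latter had the lowest p of the 18 probe sets, 0.0341 in limma before adjustment and 1 after it. Its WT polyribosomal values ran from 4.79 through a median of 4.88 to 5.13, and its Fmr1 KO values from 4.92 through 5.16 to 5.29, so the groups overlapped. By replicate number, Fmr1 KO was higher in 6 of 6 pairs, by 0.22 ± 0.10 (SD, n = 6), and with the number as a block the limma adjusted p was 0.968.

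In total RNA the bounds were narrower and again no member passed. App differed by -0.03 between Fmr1 KO and WT (SE 0.0475, 95% interval -0.13 to 0.07), a range narrower than that in polyribosomal RNA. None of the 9 genes passed in limma, against 4 of 9690 genes tested (0.0413%). With a block for the replicate number 2 genes passed, none a member. The fewest passed without the number 1 or the number 4 lysates, 1 gene each time. A single member had an unadjusted p under 0.05. This was Psenen, with WT total values of 7.91, 8.11 and 8.28 (lowest, median, highest) and Fmr1 KO values of 7.82, 7.96 and 8.07. It differed by -0.16 (SE 0.0718, 95% interval -0.32 to -0.01, limma adjusted p = 0.982), and its groups overlapped. Bace1 differed by 0.06, Aplp1 by 0.04, Aplp2 by 0.02, Psen2 by 0.08, Ncstn by -0.01, Aph1a by 0.05 and Aph1b by -0.04.

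**Figure D2:**
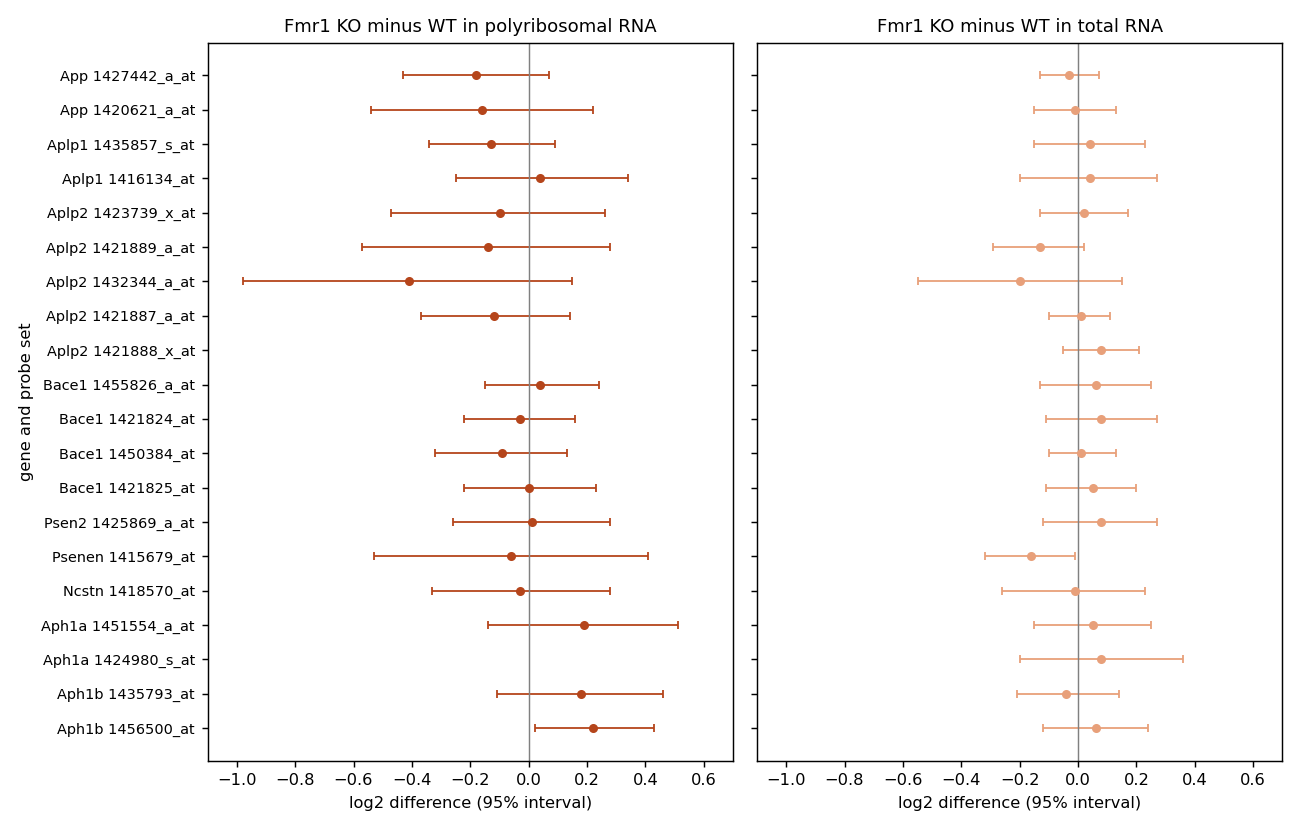
Log2 difference between Fmr1 KO and WT (horizontal axis) in polyribosomal RNA, left, and total RNA, right, for each tested probe set of the 9 genes, with its 95% interval from limma (6 arrays a genotype). Nearly all intervals include 0, the exceptions being Aph1b 1456500_at in polyribosomal RNA and Psenen in total RNA, and none passed after adjustment. A row without a point was not tested in that RNA.

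The members differed from each other in how they were split between polyribosomal and total RNA. Bace1, Psen2 and Ncstn were higher in polyribosomal than in total RNA of the same lysate in both genotypes. Psenen and Aplp2 were lower in both, and App passed in neither. In WT cortex 3 genes were higher (Bace1, Psen2, Ncstn) and 3 lower (Psenen, Aplp2, Aph1a), and 3 did not pass (App, Aplp1, Aph1b). In limma with the lysate as a block, 6410 of 9725 genes passed in WT, 65.9%, with 37.5% higher and 28.4% lower. In Fmr1 KO 4 members were higher (Bace1, Psen2, Ncstn, Aph1b), 3 lower (Aplp2, Psenen, Aplp1) and 2 did not pass (App, Aph1a), where 66.9% of 9700 genes passed, 38.7% higher and 28.2% lower. The members' share was therefore near that of all genes. Where ranges without overlap are named for a member, the share of all genes with such ranges is not given. The pool covers mRNAs on 6 or more ribosomes, and an mRNA with a lower value may still have sat on polyribosomes.

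The start regions of the members that were called in both genotypes, and of App, are shown. Ribosomes load from the 5′ end of an mRNA, which here is the part in capitals only. Each run holds 25 bases before the annotated start in lower case and the first 25 transcribed bases in capitals, 5′ to 3′ on the gene's strand, from RefSeq (GRCm38.p6). Psen2 and Psenen have 2 annotated starts each.
App, chr16:85173683-85173732, minus strand: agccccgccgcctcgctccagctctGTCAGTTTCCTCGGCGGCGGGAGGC
Aplp2, chr9:31211824-31211873, minus strand: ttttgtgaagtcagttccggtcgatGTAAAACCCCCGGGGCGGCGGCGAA
Psen2, first start, chr1:180256276-180256325, minus strand: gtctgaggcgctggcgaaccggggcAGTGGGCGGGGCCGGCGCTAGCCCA
Psen2, second start, chr1:180245926-180245975, minus strand: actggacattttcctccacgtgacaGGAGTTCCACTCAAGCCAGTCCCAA
Psenen, first start, chr7:30563603-30563652, minus strand: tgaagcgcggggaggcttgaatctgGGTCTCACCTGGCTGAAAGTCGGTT
Psenen, second start, chr7:30563180-30563229, minus strand: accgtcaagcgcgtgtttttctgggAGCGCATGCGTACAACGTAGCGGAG
Ncstn, chr1:172082725-172082774, minus strand: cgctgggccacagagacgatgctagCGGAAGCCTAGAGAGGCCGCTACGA
Of the 9 members 8 matched the RefSeq table, with 10 windows of 300 bases (250 before and 50 after a start), and Bace1 had no entry. A TOP-type start, read as a C at the annotated first base followed by at least 4 bases that are each C or T on the gene's strand, was in 0 of the 10 windows and in 2.51% of all 32851. The letters GGGCGG, on either strand, were in 6 of the 10 windows and in 35.7% of all, and these windows lie mostly before the start, outside the mRNA. These matches describe the letters of the windows and were not tested against the values.

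Bace1, the beta-secretase, had the largest polyribosomal excess of the 9 genes. Its WT total values at probe set 1455826_a_at were 10.14, 10.24, 10.16, 10.05, 9.89 and 9.96 for lysates 1 to 6, and the polyribosomal values of the same lysates were 10.95, 10.82, 10.86, 10.67, 10.96 and 10.78. Every WT polyribosomal array was thus above every WT total array. The difference was 0.77, a 1.70-fold excess (SE 0.0884, limma adjusted p = 1.98e-05), and single WT lysates gave 0.58 to 1.06. In Fmr1 KO the total values were 10.10, 10.08, 10.47, 10.20, 9.99 and 9.99, and the polyribosomal values 10.99, 10.79, 10.99, 10.94, 10.68 and 10.93. Again the ranges did not overlap, and the difference was 0.75 (SE 0.0822, adjusted p = 1.12e-05), with single lysates at 0.52 to 0.94.

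The other Bace1 probe sets did not all show the excess. Probe set 1421824_at was higher by 0.83 in WT and 0.72 in Fmr1 KO, and 1450384_at by 0.66 and 0.56, all 4 past the threshold with no overlap. Probe set 1421825_at had 0.13 in WT (95% interval -0.06 to 0.31) and 0.08 in Fmr1 KO (-0.14 to 0.31) and did not pass. Of all genes tested, 92.9% had a lower difference than Bace1 in WT and 91.1% in Fmr1 KO. The excess of Bace1 stayed past the threshold in all 14 alternatives in each genotype.

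Gamma-secretase subunits did not move as one group. Psen2, a presenilin and so a catalytic subunit, rose from a median of 4.27 in WT total RNA (3.80 to 4.36) to 4.82 in WT polyribosomal RNA (4.62 to 4.95), with no overlap. In Fmr1 KO the median was 4.28 in total (4.13 to 4.30) and 4.83 in polyribosomal RNA (4.42 to 5.24), again with no overlap. The differences were 0.63 (SE 0.0958, limma adjusted p = 0.000146) and 0.57 (SE 0.0957, adjusted p = 0.000282), positive in 6 of 6 lysates of each genotype. These levels are near the limit of 4, which 4 of the 6 WT total arrays reached, and the gene rests on 1 probe set, since the other did not reach the limit.

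Ncstn, the large extracellular subunit, was also higher in polyribosomal RNA. Its WT median was 5.03 in total RNA (4.79 to 5.24) and 5.27 in polyribosomal RNA (5.14 to 5.82), and its Fmr1 KO median 5.13 (4.56 to 5.24) and 5.32 (5.12 to 5.64). The groups overlapped, but within a lysate polyribosomal RNA was higher in 6 of 6 in each genotype. The differences were 0.37 in WT (SE 0.0963, limma adjusted p = 0.00564) and 0.35 in Fmr1 KO (SE 0.0843, adjusted p = 0.00317).

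Psenen, the smallest subunit, went the other way. Its WT median was 8.11 in total RNA (7.91 to 8.28) and 7.80 in polyribosomal RNA (7.05 to 8.02), and its Fmr1 KO median 7.96 (7.82 to 8.07) and 7.76 (6.66 to 7.94). The fall was uneven among lysates, since WT lysates 1 and 5 had differences of -0.81 and -1.19 and the other 4 ranged from -0.35 to 0.02. In Fmr1 KO, lysate 1 had -1.19, lysate 4 -0.56 and the others -0.30 to 0.08. The mean difference was -0.48 in WT (SE 0.141, limma adjusted p = 0.0113) and -0.37 in Fmr1 KO (SE 0.144, adjusted p = 0.0384). The Fmr1 KO call was lost in 8 of 14 alternatives, among which the fit without lysate 5 appears more than once. Without lysate 1 the value was -0.21 (adjusted p = 0.107), and without lysate 4, 5 or 6 it had adjusted p = 0.0989, 0.0607 and 0.0600.

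The Aph1 subunits, which are built into alternative forms of the complex, had values that depended on the probe set or the genotype. Aph1a fell by 0.24 in WT (SE 0.0928, limma adjusted p = 0.0400), lower in 6 of 6 lysates, and stood at -0.11 in Fmr1 KO (adjusted p = 0.447), lower in 3 of 6. The WT call was lost in 8 of 13 alternatives, with adjusted p = 0.132, 0.117, 0.0817 and 0.0637 without lysate 1, 2, 5 or 6. Probe set 1424980_s_at gave -0.57 in WT and -0.61 in Fmr1 KO. It reached the limit of 4 in 6 of 6 total arrays of each genotype but in 3 of 6 WT and 2 of 6 Fmr1 KO polyribosomal arrays, so it was kept through its total values and the size of the difference rests on signal at the limit. Across the 24 arrays these 2 probe sets correlated at 0.108.

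Aph1b was 0.10 higher in WT polyribosomal RNA (SE 0.102, limma adjusted p = 0.406) and 0.31 higher in Fmr1 KO (SE 0.107, adjusted p = 0.0231). The Fmr1 KO call rested in part on replicate 1, whose polyribosomal value of 6.44 was the highest of the group (the others were 5.60 to 5.93). Without lysate 1 the difference was 0.20 (adjusted p = 0.0622). Probe set 1456500_at gave 0.17 in WT (adjusted p = 0.115) and 0.33 in Fmr1 KO (adjusted p = 0.00622). A call in 1 genotype only does not show a difference between genotypes, and the direct test did not detect one.

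**Figure D3:**
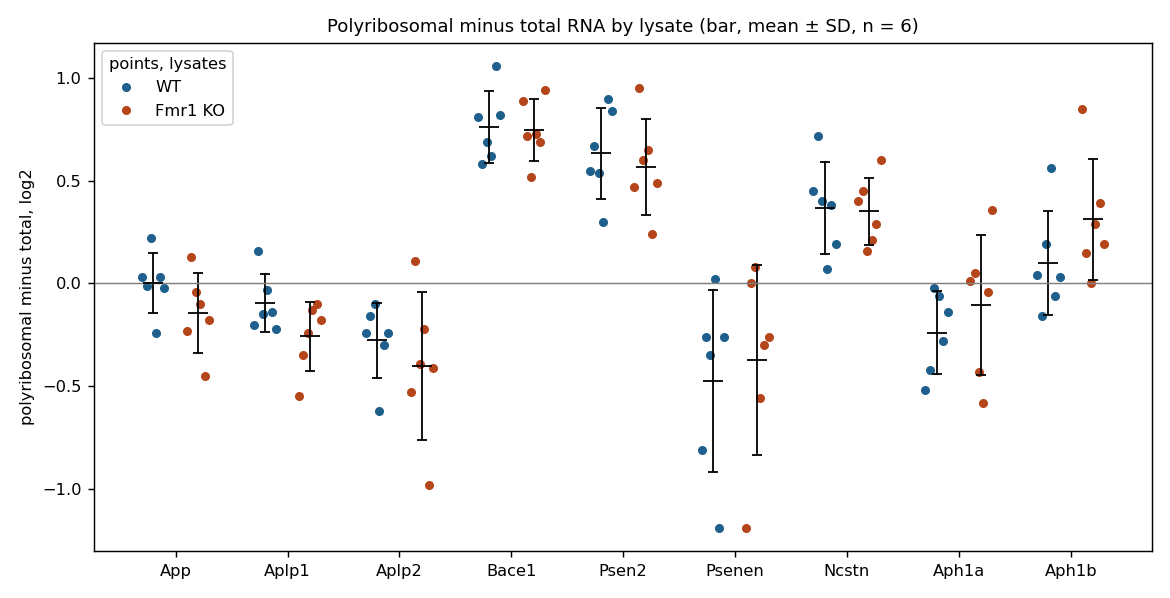
Polyribosomal minus total RNA of the same lysate (vertical axis, log2) for the brightest probe set of the 9 genes. Points are the 6 lysates of WT and of Fmr1 KO, and bars give their mean and SD. All 12 lysates lie above 0 for Bace1, Psen2 and Ncstn, App lies around 0 at -0.45 to 0.22, and Psenen and Aplp2 lie mostly below 0 with a few lysates far down.

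App itself passed in neither genotype. Its differences for WT lysates 1 to 6 were 0.03, -0.01, 0.22, -0.24, 0.03 and -0.02, with a mean of 0.00 (SE 0.0848, 95% interval -0.19 to 0.19, limma adjusted p = 0.998). In Fmr1 KO they were -0.23, 0.13, -0.04, -0.10, -0.45 and -0.18, with a mean of -0.15 (SE 0.0886, 95% interval -0.34 to 0.05, adjusted p = 0.164). The values were above 0 in 3 of 6 WT lysates and in 1 of 6 Fmr1 KO lysates. The arrays were normalized, so a difference of 0 does not mean an equal share in the 2 RNAs. Of all genes tested, 43.7% had a lower difference than App in WT and 33.3% in Fmr1 KO, with a median over all genes of 0.09 in each.

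Its paralogs lay lower. Aplp2 had a WT median of 10.97 in total RNA (10.84 to 11.08) and 10.72 in polyribosomal RNA (10.34 to 10.90), and an Fmr1 KO median of 10.98 (10.85 to 11.18) and 10.65 (9.88 to 11.05). It fell by 0.28 in WT (SE 0.0894, limma adjusted p = 0.0178), in 6 of 6 lysates, and by 0.40 in Fmr1 KO (SE 0.121, adjusted p = 0.0119), in 5 of 6. The largest falls were those of the lysates that stood apart, -0.62 in WT lysate 4 and -0.98 in Fmr1 KO lysate 5. Aplp2 passed in all 14 alternatives in each genotype, those without these lysates included. Within a genotype, leaving out both of these lysates is the same fit as leaving out its own, so that fit is counted under both names. Its other probe sets differed in their calls. Probe set 1432344_a_at was lower by 0.45 and 0.67, both past the threshold, but WT lysate 4 alone had -1.61, and without it the WT value was -0.22 (limma adjusted p = 0.0643). The WT call at that probe set was also lost without lysate 3 or 5 (adjusted p = 0.0518 and 0.0749). Probe set 1421889_a_at passed in WT (-0.28, adjusted p = 0.0383) and not in Fmr1 KO (-0.29, adjusted p = 0.0804). Probe set 1421887_a_at passed in neither (-0.10 and -0.22, adjusted p = 0.326 and 0.0627), and 1421888_x_at, tested in Fmr1 KO alone, did not pass (-0.20, adjusted p = 0.0818). Aplp1 stood at -0.10 in WT (SE 0.0838, adjusted p = 0.330) and fell by 0.26 in Fmr1 KO (SE 0.0847, adjusted p = 0.0180), in 6 of 6 lysates. That call was lost without lysate 1 (-0.20, adjusted p = 0.0512), and the other Aplp1 probe set stood at -0.10 in both genotypes without passing. The probe sets used for Aplp1 and Aplp2 are of the _s_at and _x_at kinds, which can bind related transcripts.

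Whether the split between polyribosomal and total RNA differed between genotypes was tested on the 12 lysate differences, the comparison that bears most directly on polyribosome association without FMRP. App was 0.15 lower in Fmr1 KO (SE 0.115, 95% interval -0.39 to 0.10). Aplp1 was at -0.16 (SE 0.110) and Aplp2 at -0.13 (SE 0.155). Of all genes tested, 9.85% had a lower value than App, 8.02% than Aplp1 and 12.6% than Aplp2. For the secretase genes this share was 24.3% to 92.9%. Bace1, with the largest excess in both genotypes, differed by -0.02 (SE 0.112, -0.25 to 0.22). The subunits had -0.07 for Psen2, -0.02 for Ncstn, 0.10 for Psenen, 0.13 for Aph1a and 0.21 for Aph1b (SE 0.151, -0.11 to 0.53). None of the 9 members passed in limma, each with an adjusted p = 0.999, and none had an unadjusted p under 0.05. None of 9955 genes passed, which is 0%, and 233 of them had an unadjusted p under 0.05.

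Arrays with a low App value also had a low Aplp2 value. With group means removed, the 2 genes correlated at r = 0.907 over the 24 arrays, at 0.944 over the 12 polyribosomal and at 0.540 over the 12 total arrays. Without WT polyribosomal 4 and Fmr1 KO polyribosomal 5 the value was 0.802. The points share array, lysate and normalization, and those 2 arrays differed from their groups over all probe sets too, so the correlation is a description of these arrays. For the other members the values against App, with group means removed, were 0.706 for Psen2, 0.414 for Ncstn, 0.406 for Bace1, 0.265 for Aplp1, 0.0547 for Psenen, -0.177 for Aph1b and -0.386 for Aph1a.

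**Figure D4:**
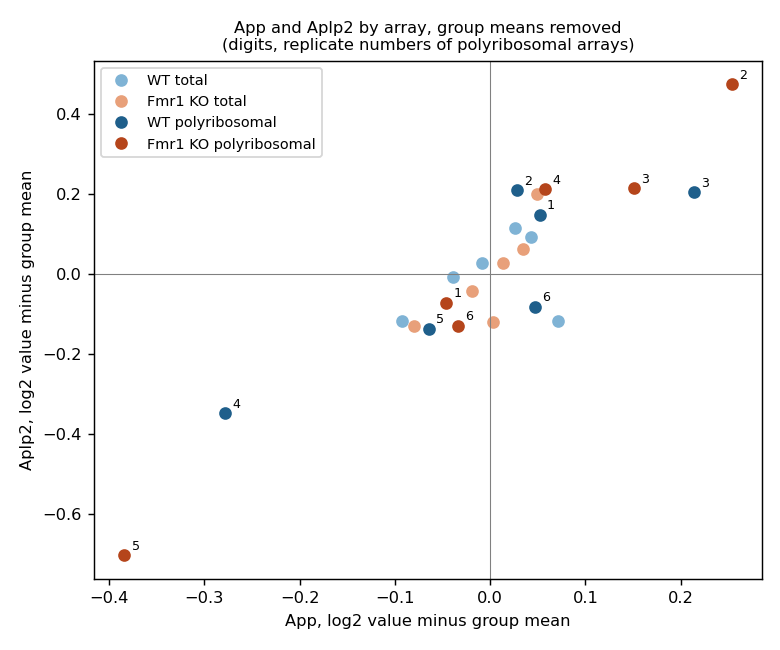
Log2 value minus the group mean of App (horizontal axis) and of Aplp2 (vertical axis), 1 point an array, for WT and Fmr1 KO total and polyribosomal RNA. The 24 points correlate at 0.907, the total arrays lie near 0, and Fmr1 KO polyribosomal replicate 5 and WT polyribosomal replicate 4 lie at the lower left.

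Among 9954 other genes, those with a pattern over the 24 arrays most like that of App were Sparcl1, an extracellular matrix protein gene (Pearson's r = 0.931), and Pfkm, a phosphofructokinase of glycolysis (0.884). Ak5, an adenylate kinase gene (0.883), Tsc2, whose product restrains mTOR (0.878), and Slc23a2, an ascorbate transporter gene (0.877), came next. With group means removed these 5 had r of 0.847 to 0.925. All 5 had their lowest polyribosomal value of each genotype in WT replicate 4 and Fmr1 KO replicate 5, the arrays that stood apart. Sparcl1, for example, was at -0.332 and -0.526 from its group means there. Their r without these arrays is not given, so the likeness is a description of these arrays. Aplp2 had 0.825 over the 24 arrays, above 99.6% of the genes.

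The wider pathway was read from lists of genes that handle App or its products. None of the genes of these lists passed in a genotype comparison. In the comparison of polyribosomal with total RNA most lists had genes on both sides. Alpha- and other secretases had 2 of 6 listed genes tested, and neither passed in either genotype. Adaptors and transport proteins of App had 9 of 15 higher and 3 lower in WT, where 37.5% of all genes were higher and 28.4% lower, with a median of 0.30 beside 0.09 for all genes. The counts were the same in Fmr1 KO. Their widest differences were those of Mapk8ip1, a scaffold of JNK signalling, at -2.73 in WT (SE 0.126, limma adjusted p = 2.78e-08) and -2.98 in Fmr1 KO, and of Apba2, a neuronal adaptor that binds the App tail, at 1.19 (SE 0.108, adjusted p = 3.53e-06) and 1.10.

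Genes that sort App and Bace1 between membranes had 6 higher and 3 lower of 17 in WT and 10 higher and 2 lower of 18 in Fmr1 KO, the WT count being near the share of all genes (37.5% higher and 28.4% lower in WT, 38.7% and 28.2% in Fmr1 KO). Vps26b, a retromer subunit, was higher by 0.55 in WT and 0.63 in Fmr1 KO, and Gga2, an adaptor of the trans-Golgi network, by 0.50 and 0.43. Genes of amyloid-beta degradation and clearance had 4 higher and 1 lower of 8 in WT and 6 higher and 1 lower in Fmr1 KO, beside the same 37.5% and 38.7% of all genes higher. Mme, the gene of the peptidase neprilysin, was the lower one at -1.23 in WT (SE 0.124) and -1.22 in Fmr1 KO, while Ece1, the gene of an endothelin-converting enzyme, was higher by 0.72 and 0.60. In Fmr1 KO polyribosomal RNA all 8 of this list had values below those of WT, from -0.17 to -0.01, and none passed. Their median was -0.08, beside 0.01 for all genes. In total RNA 7 of the 8 were below WT as well. Astrocyte markers (6 of 8 below WT, median -0.13), oligodendrocyte lineage markers (6 of 6 with a value at or below that of WT, median -0.10) and microglial markers (3 of 3 below, median -0.04) lay the same way in polyribosomal RNA. Excitatory neuron markers (7 of 9 above WT, median 0.04) and endothelium and pericyte markers (2 of 3 above, median 0.01) lay the other way. Interneuron markers had 5 of 8 below WT, with a median of -0.01. The part of these cell types in the list's values was not tested.

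Other substrates of Bace1 and gamma-secretase, mostly adhesion molecules and receptors, were more often lower than higher in polyribosomal RNA. Of 20 tested in WT, 10 were lower and 4 higher, with a median of -0.30, and in Fmr1 KO 10 were lower and 3 higher, with a median of -0.38, where 28.4% and 28.2% of all genes were lower. Dcc, a netrin receptor gene, was lower by 1.36 in WT (SE 0.144, limma adjusted p = 1.01e-05) and by 1.40 in Fmr1 KO. Nrg3, which encodes a neuregulin, was lower by 1.19 (SE 0.101, adjusted p = 2.05e-06) and by 1.12. Whether the lists differ from other genes was not tested.

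**Figure D5:**
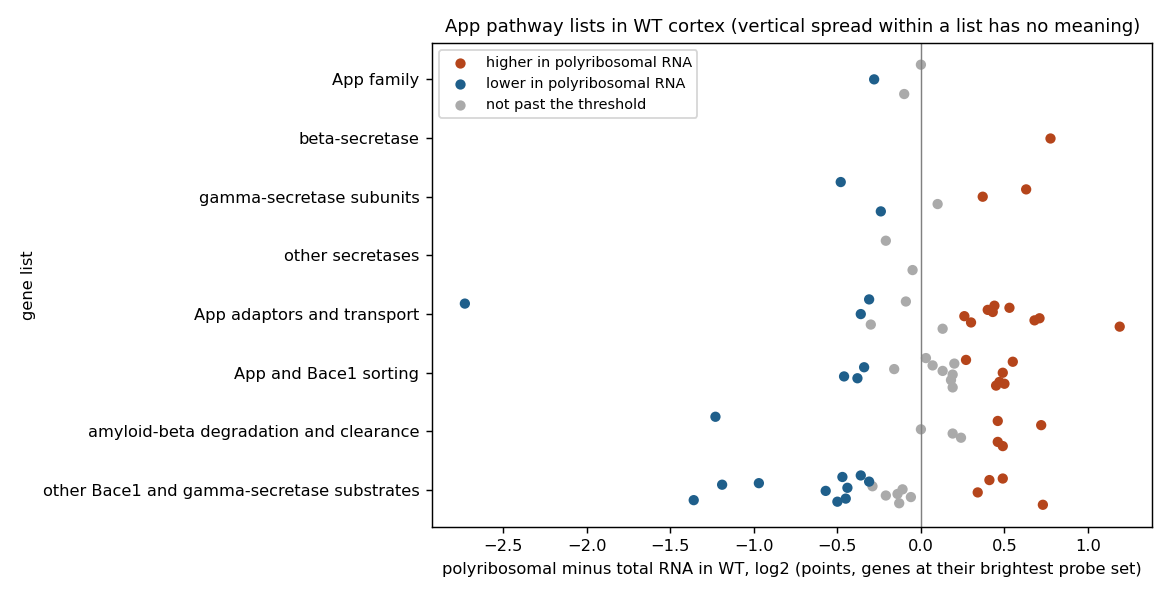
Polyribosomal minus total RNA in WT cortex (horizontal axis, log2) for the tested genes of each list, 1 point a gene at its brightest probe set, coloured by the limma call with the lysate as a block. App family and substrate genes lie mostly at or below 0 and Bace1 at 0.77, and Mapk8ip1 at -2.73 is the farthest point.

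Some markers of other cell types moved with RNA kind as well. The summed endothelium and pericyte markers, 3 of 7 of which reached a mean of 4, had log2 values of 7.87 to 8.20 in WT total and 8.25 to 9.02 in WT polyribosomal RNA, and those of the oligodendrocyte lineage, 6 of 7, had 11.38 to 11.96 and 11.84 to 12.70. Those of the meninges, 2 of 5, had 7.70 to 8.16 and 6.85 to 7.35, and those of microglia, 2 of 7, had 7.91 to 8.29 and 7.36 to 7.69. The lower sum was that of 1 gene in each list, since in WT Igf2 was at -1.22 but Dcn at 0.37, and Aif1 at -1.32 but C1qb at 0.01. The lists with higher sums were mixed too. In WT Olig2 (0.88), Cnp (0.81) and Mbp (0.75) were higher, but Pdgfra was lower (-0.32) and Olig1 and Sox10 did not pass. Rgs5 (0.77) and Cldn5 (0.43) were higher, and Pdgfrb (0.20) did not pass. Pecam1, Kdr, Flt1 and Tek among endothelial markers, Lum, Col1a1 and Col1a2 among meningeal markers, and Csf1r, Cx3cr1, C1qa, Tyrobp and Trem2 among microglial markers had means below 4. Both RNAs of a pair came from the same lysate, and the part of these cells in the members' differences was not tested. The summed choroid plexus markers, 1 of 5, ran from 5.10 to 12.20 over the 24 arrays with wide and overlapping ranges in each group.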

How the data were processed

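Per the submitters' processing notes, the authors made the deposited values with GCRMA, version not stated, which corrects background, normalizes and summarizes probe sets. The deposited values are log2, as judged from their range. If all 24 arrays were normalized together is not given in the sources used here, and the number of arrays limits the precision. Symbols came from the platform annotation. Members and lists were chosen with earlier results of these data known.

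Limma 3.58.1 in R 4.3.3 (lmFit, eBayes, two-sided, Benjamini-Hochberg over all probe sets tested, threshold 0.05) was fitted to 5 comparisons on the whole table, tested on simulated data. For polyribosomal minus total RNA the lysate was a block, because the protocol takes both RNAs from 1 lysate. That arrays of 1 genotype and number share a lysate was assumed, since the labels give only a replicate number. Levels compare arrays within a probe set, never probe sets with each other. In the pathway lists the genes named are the 2 with the widest difference past the threshold in WT. Figures used matplotlib 3.10.9 in Python 3.11.15.

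Pairing was checked from residuals after group means. Same-numbered WT and Fmr1 KO arrays correlated at 0.133 to 0.532 in total RNA, where all 6 pairs exceeded 0.1, and at -0.137 to 0.625 in polyribosomal RNA. For the 2 arrays of a lysate the range was 0.0211 to 0.525 for WT lysates and 0.156 to 0.474 for those of Fmr1 KO. The total array of the same number was the best match in 5 of 6 WT and 6 of 6 Fmr1 KO lysates. The study describes 6 littermate pairs, but no label ties a number to a litter. Alternatives were the filter, centring, quantile normalization, a variance trend, each replicate left out, the mean of a gene's probe sets, the block, and, chosen after seeing the data, leaving out the 2 lysates that stood apart. For polyribosomal minus total RNA this last choice repeats the fit without number 4 in WT or number 5 in Fmr1 KO. The counts of alternatives there include that fit under both names.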

Additional observations from a re-analysis of the deposited data

Results flagged for a closer look

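In 2 groups of 6 arrays a single value lay far from the rest, both in WT polyribosomal replicate 4. At Aph1b probe set 1435793_at this array had a log2 value of 5.99, above the other 5, which ran from 5.58 to 5.71. At Bace1 probe set 1450384_at it had 7.31, below the other 5, which ran from 7.61 to 7.77. The gap to the nearest array, as a share of the group's range, was above Dixon's 95% critical value in each. Of 80 groups checked (20 probe sets in 4 groups), 2 were picked out, where chance gives about 1 in 20. This array also had the largest residuals over all probe sets.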

How the results depend on the processing

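No member passed in a genotype comparison or in the test of the genotype difference in polyribosomal minus total RNA under any alternative run. Of the calls between polyribosomal and total RNA, Bace1, Psen2, Ncstn and Aplp2 in both genotypes and Psenen in WT passed under every alternative in which they were tested. With a limit of 6 in place of 4, 5 members were tested, and 3 passed in WT (6 in the main analysis) and 4 in Fmr1 KO (7 in the main analysis). Leaving out 1 replicate gave 5 to 6 called members in WT and 4 to 7 in Fmr1 KO, the lowest without replicate 1. Without the lysate as a block (no replicate block) 5 members passed in WT and 6 in Fmr1 KO. Of all genes, 4 passed between genotypes in total RNA, 2 with the limit of 6, 2 with the replicate block and 1 to 3 with 1 replicate left out. The block changed no count of called genes in the other genotype comparisons. With the mean of a gene's probe sets Aph1a, whose second probe set lay near the limit, passed in Fmr1 KO (-0.36, limma adjusted p = 0.0017) and Aplp1 did not (-0.18, adjusted p = 0.0754). In WT the list of amyloid-beta degradation and clearance had 6 higher genes with each array centred or with a variance trend, and 4 in the main analysis. Of the sorting list 9 were higher with the mean of probe sets, and 6 in the main analysis. The causes were not tested. Psen2 and Aph1a probe set 1424980_s_at lay near the limit of 4, so their values rest on weak signal.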
